A study of Mus musculus with 16 samples.

Results

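The genes described here are 7 that encode secreted or cell-surface proteins: C1qtnf3, Prg4, Fgfbp1, Tnfrsf11b, Bst1, Megf10 and Htra4. They were chosen by their large increases in the mammary gland between 15 and 20 weeks of age, with no stated limit on the size. They are 7 of 18193 genes with a probe set of a single symbol on Affymetrix mouse expression arrays, and they are read by 9 of the 45101 probe sets. Bst1 and Tnfrsf11b have 2 probe sets each and the other 5 genes have 1. A probe set is a group of short array probes that together report on a transcript. Because the age difference chose the genes, it is described without a test. Tests were kept for the housing difference within an age, on arrays that also entered the choice, and for lists of related genes. Those lists were not chosen by an age difference, but they were written with earlier results of these data known.

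All mice were FVB/N females homozygous for the SV40 large T antigen, whose expression is driven by the C3(1) fragment of a rat prostatic promoter. This transgene gives rise to mammary tumours, and no group without it was analysed here. After weaning with their sisters, mice were assigned to single housing (isolated) or housing with other females (grouped), in sets balanced by an open-field test, per the labels' protocols. Thoracic mammary glands were taken in estrus, at a fixed hour of the dark phase, with 4 samples and 4 arrays in each group: grouped at 15 weeks, isolated at 15 weeks, grouped at 20 weeks and isolated at 20 weeks. Whether the numbered samples of a group are different mice is not stated in the labels, and p-values then reflect only the variation among these samples. RNA came from the whole gland, so fewer cells of a type and less RNA per cell cannot be told apart. Values are log2 levels, on which a difference of 1 is a 2-fold change.

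In the deposited values the array medians were 8.09 to 8.11 at 15 weeks and 8.31 to 8.34 at 20 weeks. Each age thus had its own value distribution, and age and array run cannot be told apart. The median difference between ages over all probe sets was 0.24 as deposited and 0.01 after quantile normalization of the 16 arrays, which was used for every comparison of ages. After that step the 45 control probe sets for non-mouse sequences moved by -0.49 to 0.19. The difference between 3' and 5' actin control probe sets, a sign of RNA integrity, had group means from 0.22 to 0.28. Markers of several cell types differed between the ages. All 6 white adipocyte markers measured fell from 15 to 20 weeks in both housings, and 6 of 7 proliferation markers rose in each (limma, adjusted p under 0.05). The 6 proliferation markers differed, as Pcna did not pass in grouped mice and Mki67 did not in isolated mice. The glands kept high levels of luminal epithelial markers, with list means between 10.71 and 11.32 on all 16 arrays. Single markers moved both ways: of 9, 4 rose and 1 fell in grouped mice, and 2 rose and 4 fell in isolated mice. At 20 weeks 0 of the 9 were higher on average in isolated mice (median difference -0.30), with 0 past the adjusted threshold.

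Proteins of this kind act outside the cell or at its edge. C1qtnf3 is a secreted relative of adiponectin with a C1q-like domain, made by fat and cartilage among other tissues. Prg4 encodes lubricin, a mucin-like glycoprotein known for lubricating joints. Fgfbp1 binds fibroblast growth factors held in the extracellular matrix and releases them. Tnfrsf11b encodes osteoprotegerin, a soluble decoy receptor that binds RANKL and TRAIL. In the mammary gland, RANKL is known as a progesterone-induced signal for epithelial proliferation, received by the receptor RANK. Bst1 (CD157) is a lipid-anchored surface enzyme that consumes NAD and was first known from bone marrow stromal cells. Megf10 is a transmembrane receptor for the engulfment of dying cells that is also active in muscle satellite cells. Htra4 is a secreted serine protease known from the placenta.

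RefSeq promoter windows of the mouse assembly GRCm38.p6, which run from 250 bases before a transcript start to 50 after it, were given for 2 of the 7 genes. Both are shown because the means of the housings at 20 weeks were 1.47 (log2) apart for C1qtnf3 and 0.13 for Fgfbp1, neither past the test's threshold. The bases upstream of the outermost annotated gene start are printed 5' to 3' on the gene's strand, from chr5:43981829-43982049 (minus strand) for Fgfbp1 and chr15:10952082-10952118 (plus strand) for C1qtnf3. Capitals mark a match to ATTGG, the reverse complement of CCAAT.
Fgfbp1: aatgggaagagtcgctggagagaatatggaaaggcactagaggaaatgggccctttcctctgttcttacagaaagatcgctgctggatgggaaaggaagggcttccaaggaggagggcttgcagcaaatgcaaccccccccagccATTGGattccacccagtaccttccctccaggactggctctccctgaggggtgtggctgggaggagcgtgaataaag
C1qtnf3: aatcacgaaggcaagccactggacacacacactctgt

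These windows were searched on both strands for the TATA box TATAAA, the AP-1 site TGACTCA, which reads TGAGTCA on the other strand, and the GC box GGGCGG. The CCAAT box, the TEAD motif GGAATG and the RUNX motif TGTGGT were also searched, and each motif was counted on its own whether or not it overlapped another. Positions are counted from the transcript start of the window, which lies downstream of the outermost annotated start where the printed stretch ends. The Fgfbp1 window held ATTGG at 105 bases before its start, where the first base of the match is the base at 76 from the end of the printed stretch, and TATAAA at a point past the start that is not printed. The C1qtnf3 window held TATAAA at 6 bases before the start and GGAATG at 96 bases before it, and ACCACA, the reverse complement of TGTGGT, at the start itself, all outside the printed stretch. Of 32851 RefSeq windows of the same length, 13.6% held TATAAA, 37.4% held CCAAT, 14.7% held GGAATG and 16.8% held TGTGGT, each counted on either strand. The AP-1 letters (5.20% of windows) and the GC box (35.7%) were not in either of these windows. TATAAA was the motif that both windows shared.

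The secreted C1qtnf3 varied more than the other members. On the quantile-normalised log2 scale, its levels in grouped mice at 15 weeks were 9.30, 6.32, 6.03 and 7.29 for replicates 1 to 4. In isolated mice of that age they were 7.19, 6.74, 6.72 and 6.40. At 20 weeks they were 8.44, 8.17, 7.99 and 7.02 in grouped mice and 9.19, 9.36, 9.48 and 9.45 in isolated mice. The 4 isolated arrays at 20 weeks lay close together and above all other arrays except grouped replicate 1 at 15 weeks, which lay between them. That array was also the highest of its group for B and plasma cell markers (list mean 9.44 against 7.66 to 7.77), T cell markers (9.32 against 8.46 to 8.52) and neutrophil markers (9.35 against 7.63 to 8.43). The part of these cells in the C1qtnf3 level was not tested. The age difference was 2.61 (SE 0.18, 6.09-fold, n = 4 against 4) in isolated mice, the largest of all 18193 genes there. In grouped mice it was 0.67 (SE 0.80, 1.59-fold), and 1.36 without grouped replicate 1 at 15 weeks. Isolated replicates 2, 3 and 4 at 15 weeks lay under the lower quartile of all probe sets (6.89), so the 6.09-fold value may depend on low signal.

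Prg4, the lubricin gene, had levels of 7.92, 7.51, 7.26 and 7.78 in grouped mice and 7.61, 7.76, 7.59 and 7.81 in isolated mice at 15 weeks. At 20 weeks they were 8.34, 9.21, 10.10 and 8.39 in grouped mice and 8.77, 9.32, 10.56 and 9.80 in isolated mice. All 8 arrays at 20 weeks lay above all 8 at 15 weeks, but both groups at 20 weeks spread widely, by 1.78 (log2, deposited values) from lowest to highest. Replicate 3 was the highest in each housing. The age difference was 1.39 (SE 0.44, 2.63-fold) in grouped mice and 1.92 (SE 0.38, 3.78-fold) in isolated mice.

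Fgfbp1, the carrier of fibroblast growth factors, had nearly equal age differences in both housings. At 15 weeks its levels were 8.55, 8.08, 7.81 and 8.98 in grouped mice and 8.87, 8.42, 8.44 and 8.26 in isolated mice. At 20 weeks they were 10.13, 10.19, 9.11 and 10.01 in grouped mice and 10.98, 9.75, 9.99 and 9.29 in isolated mice. The ages did not overlap, although grouped replicate 3 at 20 weeks was only a little above the highest array at 15 weeks. The differences were 1.504 (SE 0.36, 2.84-fold) in grouped and 1.501 (SE 0.38, 2.83-fold) in isolated mice.

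The decoy receptor gene Tnfrsf11b had levels of 7.16, 6.68, 6.75 and 7.50 in grouped mice and 7.32, 6.79, 7.13 and 6.87 in isolated mice at 15 weeks on its brighter probe set. At 20 weeks they were 9.09, 8.96, 8.47 and 7.49 in grouped mice and 9.62, 9.42, 8.56 and 9.21 in isolated mice. Grouped replicate 4 at 20 weeks stayed at the level of the highest array of 15 weeks, and the other 7 arrays of 20 weeks were clear of it. The age difference was 1.48 (SE 0.41, 2.79-fold) in grouped and 2.17 (SE 0.26, 4.50-fold) in isolated mice. The second probe set gave the same direction with smaller sizes, 0.45 (SE 0.13, 1.36-fold) and 0.85 (SE 0.12, 1.80-fold), and on it all arrays of 20 weeks lay above all of 15 weeks.

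The surface enzyme gene Bst1 had the largest mean age difference over both housings of all genes tested. On its brighter probe set it lay at 7.45, 6.96, 6.82 and 7.63 in grouped mice and 7.35, 7.40, 7.28 and 7.40 in isolated mice at 15 weeks. At 20 weeks it lay at 9.01, 8.88, 8.95 and 9.04 in grouped mice and at 10.12, 10.07, 9.86 and 9.46 in isolated mice. The order was clear on these arrays. Both groups at 15 weeks overlapped, all grouped arrays at 20 weeks lay above them, and all isolated arrays at 20 weeks lay above those. The age difference was 1.75 (SE 0.20, 3.38-fold) in grouped mice and 2.52 (SE 0.15, 5.75-fold) in isolated mice. The second Bst1 probe set showed the same order, with differences of 1.14 (SE 0.16, 2.20-fold) and 2.18 (SE 0.17, 4.52-fold).

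The engulfment receptor gene Megf10 and the protease gene Htra4 started from low levels. Megf10 lay at 6.56, 6.27, 6.59 and 6.44 in grouped mice and 6.68, 6.51, 6.67 and 6.26 in isolated mice at 15 weeks, below the lower quartile of all probe sets (6.89). At 20 weeks it lay at 8.08, 8.05, 7.83 and 8.19 in grouped mice and 9.38, 7.87, 8.03 and 8.07 in isolated mice. The other arrays of 20 weeks were alike, and isolated replicate 1 stood above them. The age differences were 1.57 (SE 0.11, 2.97-fold) in grouped and 1.81 (SE 0.36, 3.50-fold) in isolated mice, and 1.46 in isolated mice without that array.

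For Htra4, the levels at 15 weeks were 5.27, 5.30, 5.36 and 5.54 in grouped mice and 5.44, 5.35, 5.30 and 5.30 in isolated mice, under the 10th percentile of all probe sets (5.71). At 20 weeks they were 7.40, 7.30, 7.37 and 6.50 in grouped mice and 6.05, 6.88, 6.67 and 6.48 in isolated mice. All arrays of 20 weeks lay above all of 15 weeks, and among them 3 grouped arrays were the highest. The age difference was 1.77 (SE 0.22, 3.42-fold) in grouped and 1.18 (SE 0.18, 2.26-fold) in isolated mice. At 15 weeks neither Htra4 nor Megf10 was shown to exceed background, since no detection call was used here, and the folds of both depend on that floor. On some arrays of 15 weeks C1qtnf3, Tnfrsf11b and Bst1 also lay under the lower quartile of all probe sets (6.89). Their lowest levels, in grouped mice and on the tested probe sets, were 6.03, 6.68 and 6.82, so their folds are limited in part too.

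**Figure D1:**
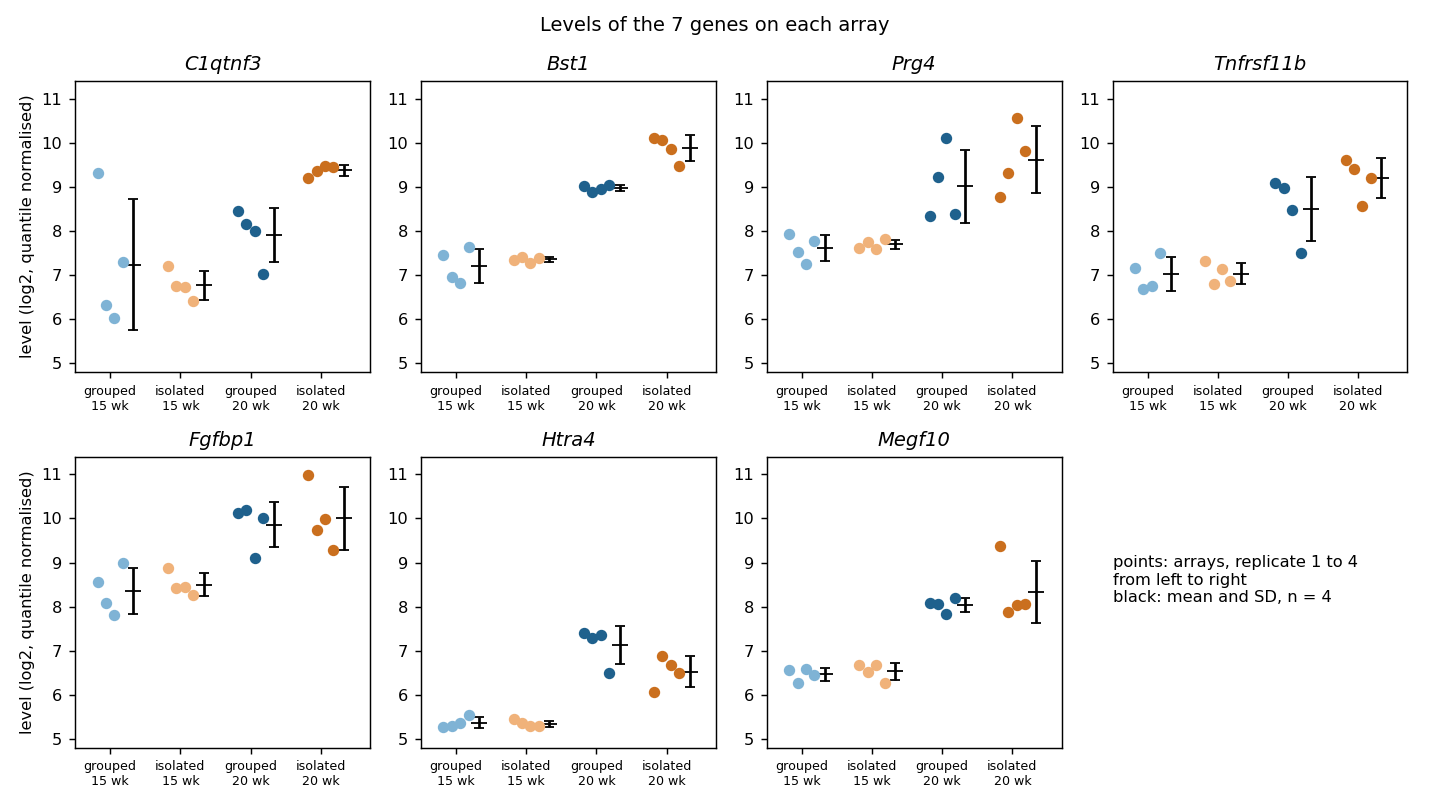
Level of each of the 7 genes (log2, quantile normalised over 16 arrays, vertical axis) on every array of the 4 groups (horizontal axis), with points for replicates 1 to 4 and the mean with SD in black. Bst1 forms separate steps from 15 weeks to grouped and then isolated mice at 20 weeks, whereas C1qtnf3 has 1 grouped array at 15 weeks, at 9.30, as high as the isolated arrays at 20 weeks.

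Seen as a set, with no test because these values chose the genes, 5 of the 7 genes had all 8 arrays of 20 weeks above all 8 of 15 weeks. C1qtnf3 did not, and Tnfrsf11b missed by 0.01 on its brighter probe set. Over all genes, 11.1% had this pattern. The age difference was larger in isolated mice for C1qtnf3, Bst1, Prg4, Tnfrsf11b and Megf10 and larger in grouped mice for Htra4. For Fgfbp1 both values were close. Whether the age difference itself depended on housing was not tested for the members, because the same values chose them. Leaving out any array or changing the normalization left all 14 of these differences above 0. Since the genes were chosen by large increases, that largely follows from the choice.

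**Figure D2:**
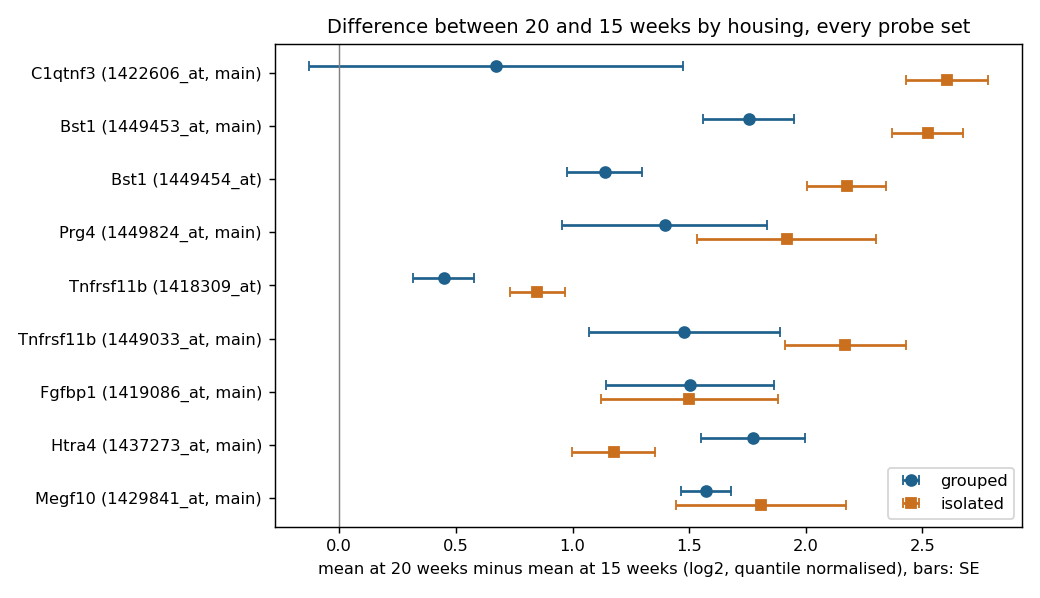
Difference between the mean at 20 weeks and the mean at 15 weeks (log2, quantile normalised, horizontal axis) for each of the 9 probe sets, in grouped (circles) and isolated (squares) mice, with bars of 1 SE. The values run from 0.45 for the dimmer Tnfrsf11b probe set in grouped mice to 2.61 for C1qtnf3 in isolated mice, and the bar of C1qtnf3 in grouped mice is the widest.

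The design's other comparison asks whether isolation altered these genes within an age. At 15 weeks, 0 of the 7 genes passed an adjusted p of 0.05 in the limma fit, where 0.044% of all genes passed. An unadjusted p under 0.05 was found for 0 of the 7 and for 9.70% of all genes. The isolated minus grouped differences ran from -0.46 (SE 0.58, adjusted p = 0.79) for C1qtnf3 to 0.16 (SE 0.15, adjusted p = 0.726) for Bst1. Without grouped replicate 1 the C1qtnf3 difference turned to 0.23. Groups overlapped for every member, where 2.31% of genes had all isolated arrays higher and 3.38% all lower. The median difference of the 7 was 0.08, beside -0.01 over all genes. The 15-week arrays entered the age differences that chose the genes, so these tests are not independent of the choice.

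At 20 weeks, 6 of the 7 genes were higher on average in isolated mice, and 0 passed the adjusted threshold, which 0.011% of all genes passed. Bst1 and C1qtnf3 were the members whose groups did not overlap, both with isolated mice higher, as in 2.21% of all genes, while 0 members were lower without overlap, as in 2% of genes. The 20-week arrays used here also entered the age differences that chose the genes, so these tests are not independent of the choice. The C1qtnf3 age difference ranked 1 of 18193 in isolated and 329 in grouped mice. High isolated arrays at 20 weeks thus favoured its choice. The counts and the median difference of the members at 20 weeks therefore cannot be read as a housing effect on the set. The median difference of the 7 was 0.60, beside -0.01 over all genes, and 3 of the 7 had an unadjusted p under 0.05, as did 8.49% of all genes.

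For Bst1, the deposited levels were 9.12, 9.01, 9.07 and 9.15 in grouped mice and 10.25, 10.20, 9.96 and 9.63 in isolated mice at 20 weeks. The isolated arrays were all higher, and they spread more than the grouped ones. The mean was 9.09 ± 0.06 (SD, n = 4) in grouped and 10.01 ± 0.28 (SD, n = 4) in isolated mice, a difference of 0.92 (SE 0.13, 1.90-fold, limma adjusted p = 0.117). Bst1 passed with array weights (adjusted p = 0.0170), in a fit of all 16 arrays (adjusted p = 0.0466) and without isolated replicate 4 (adjusted p = 0.00492), among alternatives that ranged from 0.00492 to 0.494. The second probe set gave 1.11 (SE 0.14, 2.16-fold, limma adjusted p = 0.131 over all probe sets), also without overlap.

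For C1qtnf3, the deposited levels at 20 weeks were 8.56, 8.28, 8.10 and 7.15 in grouped mice and 9.29, 9.48, 9.59 and 9.62 in isolated mice. Here the grouped arrays were the more variable, and grouped replicate 4 was the lowest. The mean was 8.03 ± 0.61 (SD, n = 4) in grouped and 9.50 ± 0.15 (SD, n = 4) in isolated mice, a difference of 1.47 (SE 0.26, 2.77-fold, limma adjusted p = 0.281). It passed under none of the 18 alternatives, whose adjusted p ran from 0.0911 to 0.821 and whose differences ran from 1.18 to 1.65.

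Htra4 was the member with the opposite sign. Its mean deposited level was 7.26 ± 0.42 (SD, n = 4) in grouped and 6.64 ± 0.35 (SD, n = 4) in isolated mice. As the levels of each array given before show, the groups overlapped through grouped replicate 4. The difference was -0.62 (SE 0.23, limma adjusted p = 0.567). The other 4 genes overlapped between housings too, at 0.70 (SE 0.35, limma adjusted p = 0.61) for Tnfrsf11b, 0.60 (SE 0.46, adjusted p = 0.708) for Prg4, 0.30 (SE 0.29, adjusted p = 0.773) for Megf10 and 0.13 (SE 0.35, adjusted p = 0.922) for Fgfbp1. Without isolated replicate 1 the Megf10 difference was -0.048 and that of Fgfbp1 -0.19.

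**Figure D3:**
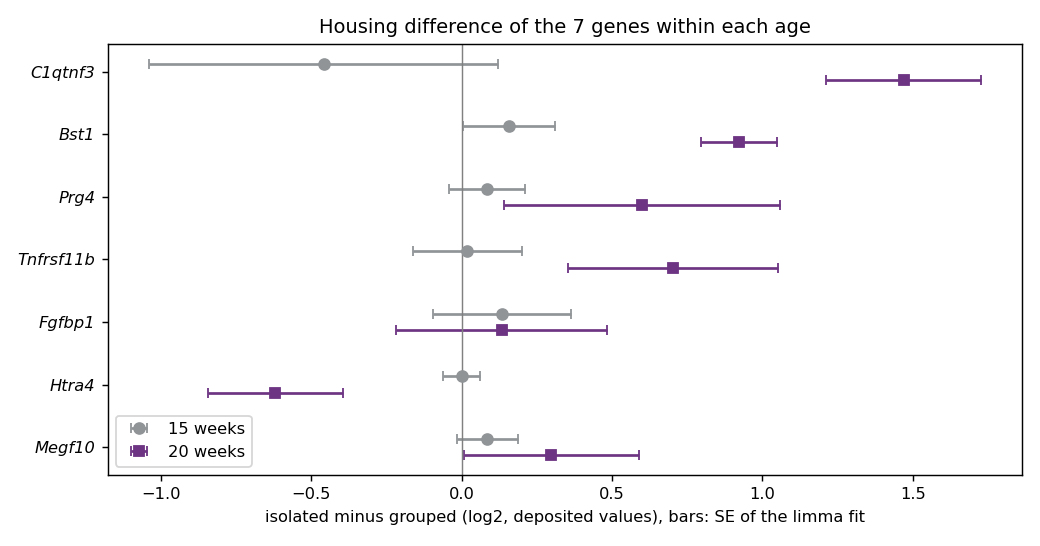
Isolated minus grouped difference (log2, deposited values, horizontal axis) of the 7 genes at 15 weeks (grey circles) and 20 weeks (purple squares), with bars of 1 SE from the limma fit of that age. At 20 weeks C1qtnf3 is at 1.47 and Bst1 at 0.92, while Htra4 lies on the other side of 0 at -0.62.

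Single arrays at 20 weeks stood high or low for different members. Isolated replicate 1 was the highest of the 8 arrays for 4 of the 7 members, Megf10 (deposited level 9.49), Fgfbp1 (11.09), Bst1 (10.25) and Tnfrsf11b (9.73), and the lowest for Htra4 (6.18). Without it the housing difference was 0.84 (limma adjusted p = 0.171) for Bst1, 0.57 (adjusted p = 0.751) for Tnfrsf11b and -0.47 (adjusted p = 0.655) for Htra4. This array also had the highest proliferation list mean (12.35, the other arrays 11.74 to 12.05), the lowest white adipocyte list mean (10.96 against 11.22 to 12.32) and the lowest skeletal muscle list mean (12.53 against 13.22 to 13.94). The part of cell makeup in these levels was not tested. Markers of satellite cells, in which Megf10 is known, had list means from 7.01 to 7.33 on all 16 arrays. Of their 6 measured markers, 2 lay under the lower quartile of all probe sets (6.89) on every array. With age, 0 rose and 1 fell in grouped mice, and 0 rose and 3 fell in isolated mice. In the deposited values 3 rose and 1 fell in grouped mice, and 2 rose and 1 fell in isolated mice.

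Prg4 was highest in isolated replicate 3 (10.65) and grouped replicate 3 (10.24). Those arrays also had the highest macrophage list means (11.69 and 11.58) of the arrays at 20 weeks, where the others had 10.15 to 11.55. Other lists peaked there too. At 20 weeks isolated replicate 3 was the highest for neutrophil (9.32), T cell (8.92), B and plasma cell (8.09) and keratinocyte (8.84) markers. Grouped replicate 3 was the highest for fibroblast (12.32) and mast cell (10.64) markers. At 15 weeks the macrophage list means were 10.71 to 11.38 and Prg4 levels 7.26 to 7.92. The part of macrophages or of these other cells in the Prg4 levels was not tested. The 7 measured markers of osteoblasts, chondrocytes and synovium, tissues in which Prg4, C1qtnf3 and Tnfrsf11b are known, had list means from 8.12 to 8.42 on all arrays. Of these markers, 0 rose and 1 fell with age in grouped mice, and 1 rose and 2 fell in isolated mice, against 2 and 5 that rose and 0 that fell in the deposited values. Between housings at 20 weeks, all 8 macrophage and all 10 fibroblast markers were on average higher in isolated mice and all 6 white adipocyte markers lower, with 0 past the threshold in limma and 1, 2 and 4 of them with an unadjusted p under 0.05. At 15 weeks all 8 macrophage and all 10 fibroblast markers were instead lower in isolated mice, 7 and 3 of them with an unadjusted p under 0.05 and 0 past the adjusted threshold, and 3 of 5 mast cell markers passed it as lower. At 20 weeks Bst1 and C1qtnf3 deviated like the macrophage and fibroblast lists in sign, except in isolated replicate 1 and grouped replicate 3. In isolated replicate 1, Bst1 was 0.70 and C1qtnf3 0.53 above its mean of the 8 arrays, with the macrophage list at -0.30 and the fibroblast list at -0.35. In grouped replicate 3 the lists were at 0.61 and 0.46, with Bst1 at -0.48 and C1qtnf3 at -0.66. The white adipocyte list had the opposite sign to both genes except in isolated replicate 4, where it was at 0.23. Other lists varied with these genes too. The neutrophil list shared their sign except in isolated replicate 1 (-0.37), and the mast cell list had the signs of the macrophage list. The basal and myoepithelial list had the opposite sign to both genes on every array. The luminal list did so except in isolated replicate 4 (0.06). The part of these cells in the Bst1 and C1qtnf3 levels was not tested.

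**Figure D4:**
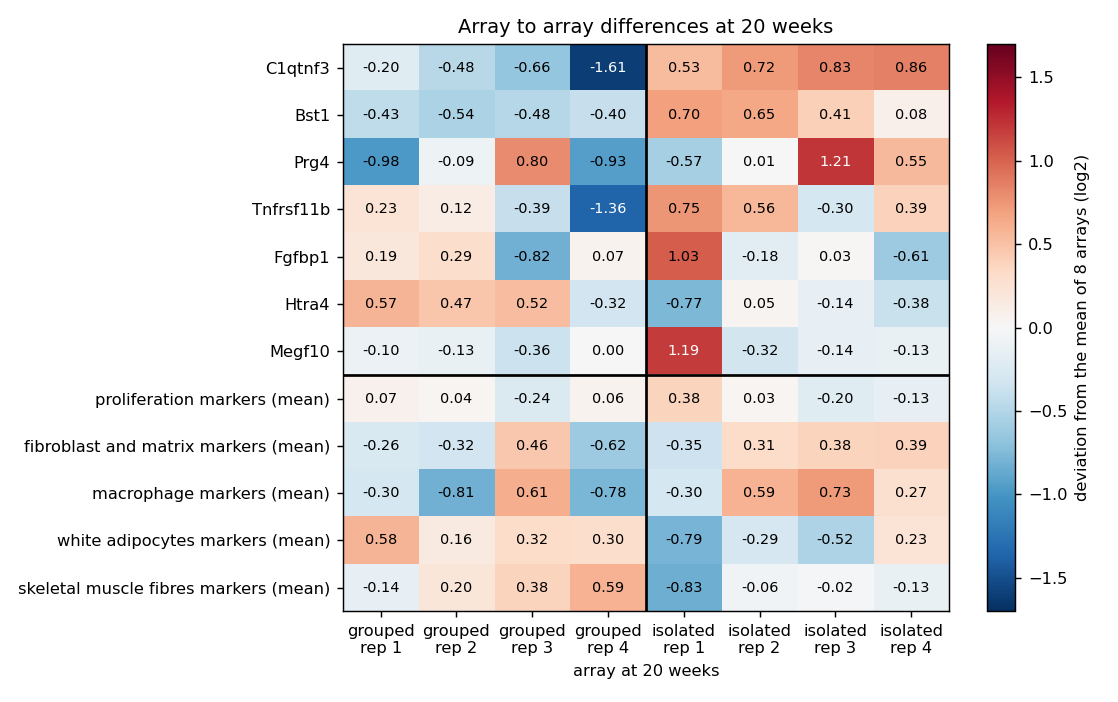
Deviation of each array at 20 weeks (columns) from the mean of the 8 arrays (log2) for the 7 genes in deposited values and, under the line, for 5 marker list means after quantile normalization. Isolated replicate 1 is the highest for Megf10, Fgfbp1, Bst1, Tnfrsf11b and proliferation markers and the lowest for Htra4, and C1qtnf3 is low in grouped replicate 4 and even across the isolated arrays.

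The lists of related genes were written with earlier results of these data known, so their independence of the age difference is not established. They hold 86 genes in 7 lists, of which 82 were measured. In grouped mice, 10 were higher and 16 lower at 20 weeks (limma, adjusted p under 0.05), or 12.2% and 19.5%, where 19.3% of all genes were higher and 19.3% lower. In isolated mice, 22 were higher and 17 lower, or 26.8% and 20.7%, where 24.7% of all genes were higher and 25.7% lower. The split depends on the scaling: in the deposited values it was 30 higher and 11 lower in grouped and 38 and 8 in isolated mice, and with the control probe sets as zero it was 14 and 13, and 28 and 13. With cyclic loess it was 9 and 18, and 18 and 19. Without grouped replicate 3 at 20 weeks, 8 were higher and 28 lower in grouped mice. For housing, 0 of the 82 passed at either age in limma, and 17 (20.7%) at 15 weeks and 17 (20.7%) at 20 weeks had an unadjusted p under 0.05, beside 9.70% and 8.49% of all genes. The named genes below kept their direction under these 4 scalings unless stated. Of those that passed, C1qtnf7, Gdf5 and Fgf10 in isolated mice and Axl, Mertk and Fgf10 in grouped mice did not pass in the deposited values. With the control probe sets as zero, Mertk in grouped and Fgf10 in isolated mice did not pass, and with cyclic loess Fgfr3 in isolated mice did not.

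Among the relatives of C1qtnf3, 5 of 13 fell and 0 rose in grouped mice, and 5 fell and 2 rose in isolated mice. As deposited, 4 fell and 3 rose in grouped and 3 fell and 6 rose in isolated mice, and with the control probe sets as zero 5 fell and 5 rose in isolated mice. Adipoq, the adipocyte hormone adiponectin, fell by 0.62 (SE 0.11, limma adjusted p = 0.00301) in grouped and by 1.45 (SE 0.21, adjusted p = 0.000522) in isolated mice, as did the other adipocyte markers. Its receptor gene Adipor2 fell by 0.42 and 0.65, and C1qtnf7 by 0.43 in both. C1qtnf6 rose in isolated mice, by 0.53 (SE 0.10, adjusted p = 0.00249), and it was chosen after its value was seen.

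The list around lubricin holds 12 genes for matrix proteins, hyaluronan enzymes and surface receptors. Of these, 4 rose in grouped and 7 in isolated mice, and 0 fell (limma, adjusted p under 0.05). Over all genes, 19.3% rose and 19.3% fell in grouped mice, and 24.7% rose and 25.7% fell in isolated mice. Passing or not, 11 of the 12 had a positive difference in grouped and 10 in isolated mice. Acan, the core of the cartilage proteoglycan aggrecan, rose by 0.72 (SE 0.12, limma adjusted p = 0.00197) in grouped and by 1.53 (SE 0.16, adjusted p = 0.000113) in isolated mice. Cd44, a hyaluronan receptor that also binds lubricin, rose by 0.81 and 0.92. Tlr2, an innate immune receptor, rose by 0.30 and 0.48. Has2, a hyaluronan synthase, had the smallest housing p of this list at 20 weeks, with a difference of 0.79 (SE 0.14, limma adjusted p = 0.259). As deposited the counts in this list were 9 and 9, with 0 lower.

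Around the decoy receptor, the gene of its ligand RANKL had small age differences. Tnfsf11, which encodes RANKL, was at 0.21 (SE 0.09, limma adjusted p = 0.0882) in grouped mice and rose by 0.26 (SE 0.07, adjusted p = 0.0140) in isolated mice. Tnfrsf11a, which encodes RANK and was chosen after its value was seen, was at -0.08 (SE 0.07, limma adjusted p = 0.429) in grouped mice, and its sign turned in the deposited values and with the control probe sets as zero. Pgr, the progesterone receptor, fell by 0.87 (SE 0.20, limma adjusted p = 0.00848) in grouped and by 1.11 (SE 0.15, adjusted p = 0.000331) in isolated mice. Acp5, an osteoclast and macrophage phosphatase, fell by 0.55 and 0.70. In all, 0 of 10 rose and 2 fell in grouped mice, and 2 rose and 3 fell in isolated mice, and as deposited 3 rose and 2 fell in each.

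Of 13 genes for fibroblast growth factors, their receptors and matrix partners, 2 rose and 2 fell in grouped and 3 rose and 3 fell in isolated mice. Fgf2, a growth factor that Fgfbp1 binds, fell by 1.26 (SE 0.11, limma adjusted p = 0.000137) in grouped and by 1.01 (SE 0.12, adjusted p = 0.000172) in isolated mice. Fgf10, a stromal factor of mammary development, fell by 0.47 and 0.27, and the receptor gene Fgfr3 rose by 1.12 (SE 0.30, adjusted p = 0.0168) and 0.58 (SE 0.22, adjusted p = 0.0495). As deposited, 7 rose and 1 fell in grouped and 5 rose and 1 fell in isolated mice.

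Among the 8 measured ectoenzymes and NAD genes related to Bst1, 2 rose and 3 fell in grouped mice, and 1 rose and 3 fell in isolated mice, and as deposited 3 rose and 2 fell in each. Nt5e (CD73), which makes adenosine at the cell surface, rose by 1.30 (SE 0.19, limma adjusted p = 0.00114) in grouped and by 1.48 (SE 0.07, adjusted p = 5.50e-06) in isolated mice. Nampt, an enzyme of NAD synthesis, fell by 0.54 and 0.67. Art3, a lipid-anchored relative of ADP-ribosyltransferases, fell by 0.76 and 1.41. Art3 also had the smallest housing p of this list at 20 weeks, with a difference of -0.62 (SE 0.12, limma adjusted p = 0.411).

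In the list of HtrA proteases and TGF-beta family ligands, 2 of 12 rose and 2 fell in grouped mice, and 5 rose and 1 fell in isolated mice. As deposited, 4 rose and 2 fell in grouped and 8 rose and 0 fell in isolated mice. Inhba, a subunit of activin, rose by 0.85 (SE 0.13, limma adjusted p = 0.00141) and 1.05 (SE 0.09, adjusted p = 4.73e-05). Gdf5, a growth factor of joints, fell by 0.45 and 0.41. Htra1, a protease relative of Htra4, fell by 0.58 (SE 0.12, adjusted p = 0.00612) in grouped mice and was at -0.12 (adjusted p = 0.158) in isolated mice, where its sign turned in the deposited values. Bmp2, a bone morphogenetic protein, rose by 1.19 (SE 0.28, adjusted p = 0.00914) and 1.82.

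Among 14 engulfment receptors and bridging proteins, 0 rose and 2 fell in grouped mice, and 2 rose and 2 fell in isolated mice. As deposited, 1 rose in grouped and 4 in isolated mice, and 0 fell. Axl, a receptor tyrosine kinase that takes part in clearing dying cells, fell by 0.57 (SE 0.14, limma adjusted p = 0.0107) in grouped mice and rose by 0.30 (SE 0.07, adjusted p = 0.00624) in isolated mice. It had the smallest housing p of the list at both ages, at -0.45 (SE 0.07, limma adjusted p = 0.0787) at 15 weeks and 0.49 (SE 0.14, adjusted p = 0.511) at 20 weeks. Mertk, a kinase of the same family, fell by 0.30 in grouped mice and was at -0.08 (adjusted p = 0.558) in isolated mice, where its sign turned in the deposited values and with the control probe sets as zero. The macrophage list, whose cells use these receptors, had 3 of 8 markers lower in grouped and 4 of 8 higher in isolated mice. The lower count was 0 in the deposited values and 1 with the control probe sets as zero, and the higher count was 1 with cyclic loess. Its part in the Axl difference was not tested.

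**Figure D5:**
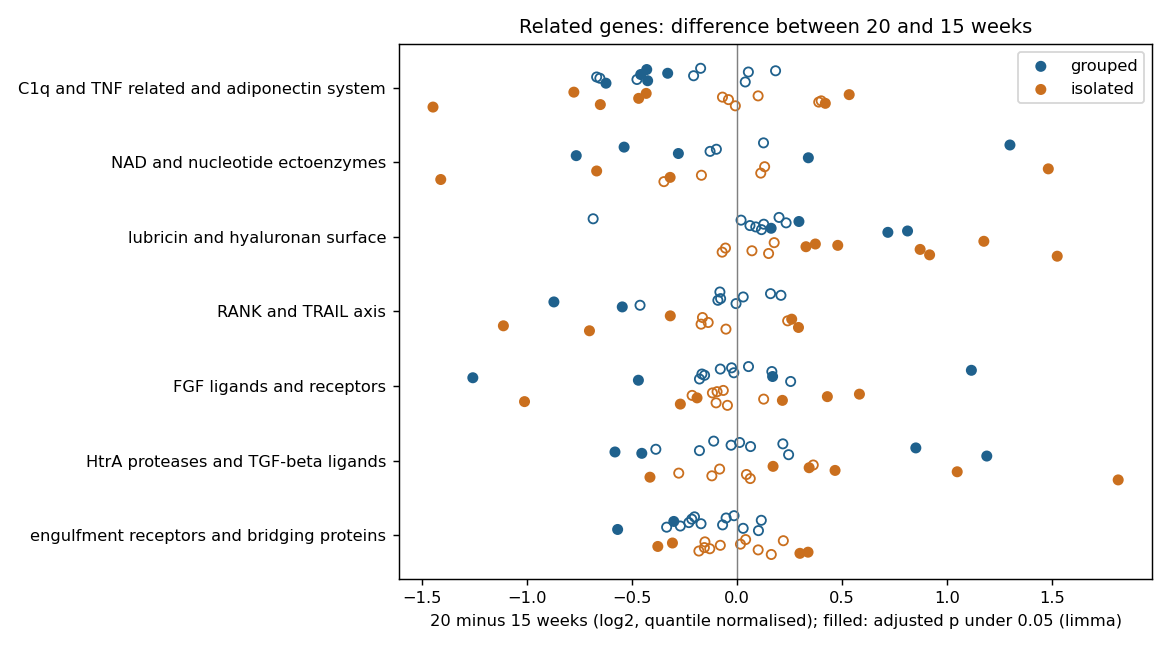
Difference between 20 and 15 weeks (log2, quantile normalised, horizontal axis) of the 82 measured related genes, grouped by list, in grouped (blue) and isolated (orange) mice, with filled points for an adjusted p under 0.05 in limma. The hyaluronan and lubricin list has no filled point below 0, and Fgf2 at -1.26 in grouped mice is the lowest point of the fibroblast growth factor list.

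The members were also compared by the shape of their profiles over the 16 arrays, as a description. The measure is the root mean square difference (log2) between 2 profiles that are each centred on their own mean, so that 0 would be an identical profile. The closest members were Fgfbp1 and Megf10, at 0.35, and the farthest were C1qtnf3 and Htra4, at 1.02. Bst1 and Tnfrsf11b were at 0.44. Of all other genes, the nearest to C1qtnf3 were Col12a1 (0.45) and Tnc (0.56), both matrix proteins, and the nearest to Bst1 were Cxcl5 (0.36), a neutrophil chemokine, and Col8a1 (0.41), a collagen.

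Cxcl5 (0.40) and Bmp2 (0.42) were nearest to Tnfrsf11b. Bmp2 was also the nearest to Fgfbp1 (0.26), followed by Wwp2 (0.27), and second nearest to Megf10 (0.34) after Lrrc49 (0.28). Prg4 was nearest to Chl1 (0.38), a cell adhesion protein, and Ctla2a (0.42). Htra4 was nearest to Socs3 (0.37), an inhibitor of cytokine signalling, and Mybl1 (0.37). All 16 arrays enter this measure, and with them the difference between ages that chose the members.

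On GRCm38.p6, RefSeq places Bst1 at chr5:43818880-43843468 and Fgfbp1 at chr5:43978858-43981828. They are 135 kb apart, with the Bst1 relative Cd38, which is not analysed here, at chr5:43868809-43912374 between them, and are each other's nearest neighbour with a tested probe set on one side. The other members lie apart: Prg4 at chr1:150449412-150466221, C1qtnf3 at chr15:10952119-10980162, Tnfrsf11b at chr15:54250619-54278484, Htra4 at chr8:25024928-25038962 and Megf10 at chr18:57133090-57297467. The genes beside the members on the chromosome had age differences smaller in size than that of the member they adjoin, apart from the pair Bst1 and Fgfbp1. Because the members were chosen for large increases, smaller values beside them largely follow from that choice. Over 12 neighbouring measured genes that are not members, values ran from -0.54 to 0.79 in grouped mice and from -0.72 to 0.86 in isolated mice. Amacr, which lies 1.59 kb from C1qtnf3, was at -0.53 and -0.72. Fbxl5, 36.7 kb from Bst1 on the side away from Fgfbp1, was at 0.56 and 0.73, and Prom1, 11.8 kb from Fgfbp1 on its other side, was at 0.79 and 0.43. Bst1 and Fgfbp1 had housing differences at 20 weeks of 0.92 and 0.13, a gap that was not tested.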

How the data were processed

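RNA of 16 mammary gland samples was measured on 1 array each. The authors deposited log2 expression values. The submitters' processing notes name RMA and affy without versions. RMA corrects for background and brings arrays to one distribution. Here each age kept its own distribution, so housing was compared within an age on the deposited values and ages were compared after quantile normalization of all 16 arrays.

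Of 45101 probe sets, 34945 had 1 gene symbol, 932 had several, 9160 were not listed in the platform's gene table and 64 were controls. Entrez identifiers of 34741 were found in RefSeq GRCm38.p6, and 0 symbols changed. For each gene the probe set with the highest mean was tested, with no filter. Fits used limma 3.58.1 (lmFit, eBayes with an intensity trend) in R 4.3.3 on 8 arrays, with Benjamini-Hochberg adjustment over 18193 genes and a threshold of 0.05. The scripts were tested on simulated data. The number of arrays limits the precision, and array data have no read depth.

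Named genes are all members; from each related list the 3 genes with the smallest p for age in grouped mice and 1 for each housing fit, where described; the 2 genes nearest to each member in profile; and chromosomal neighbours. Bmp2, C1qtnf6 and Tnfrsf11a were named beyond the list rule. The members and lists were chosen with earlier results of these data known. Marker lists cover 18 cell types or states. Alternatives were other normalizations, a filter at the 40th percentile, other probe sets or variance priors, array weights (statmod 1.5.0), a replicate block, all 16 arrays in a fit and leaving out each array.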

Additional observations from a re-analysis of the deposited data

Results flagged for a closer look

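Each group of 4 arrays was examined for an array far from the others, in 36 groups over the 9 probe sets, and 2 stood out, about as many as chance gives at 1 in 20. Megf10 was at 9.49 (deposited log2 level) in isolated replicate 1 at 20 weeks, where the next highest array of its group was at 8.17. Htra4 was at 6.63 in grouped replicate 4 at 20 weeks, where the other grouped arrays were at 7.42 to 7.53.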

How the results depend on the processing

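The count of members that passed for housing at 15 weeks was 0 under every alternative run. At 20 weeks it was 1 with array weights and 1 with all 16 arrays in a fit, and 0 to 1 when leaving out each array, the gene being Bst1 each time. The number of related genes past the threshold in grouped mice was 41 in the deposited values and 16 above the 40th percentile, where fewer genes were tested, and 22 to 36 when leaving out each array. In isolated mice leaving out each array gave 32 to 47. With array weights C1qtnf3 at 15 weeks was 0.055, Htra4 at 15 weeks 0.040 and Fgfbp1 at 20 weeks -0.095, and the cause was not tested. When leaving out each array, at 15 weeks C1qtnf3 ranged from -0.86 to 0.23, Tnfrsf11b from -0.10 to 0.18, Prg4 from -0.037 to 0.18, Fgfbp1 from -0.054 to 0.35 and Htra4 from -0.036 to 0.055. At 20 weeks Fgfbp1 ranged from -0.19 to 0.36 and Megf10 from -0.048 to 0.45. Of the age differences of members, 166 values under alternatives stayed within the spread between arrays and 2, both in deposited values, moved beyond it: Megf10 in grouped mice (1.83) and Bst1 in isolated mice (2.76). Whether the replicate numbers pair the samples was not settled. Deviations of same-numbered arrays correlated from -0.10 to 0.36 between housings at 15 weeks and from -0.16 to 0.49 at 20 weeks. Differently numbered arrays were not compared. With a replicate block, 0 members passed for housing at 15 weeks and 0 at 20 weeks, and 26 related genes passed for age in grouped and 40 in isolated mice. With this block the limma adjusted p for housing at 20 weeks was 0.0679 for Bst1 and 0.0952 for C1qtnf3. Low signal limits Htra4 and Megf10 at 15 weeks, and also those arrays of C1qtnf3, Tnfrsf11b and Bst1 under the lower quartile.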
